A study of Saccharomyces cerevisiae with 2 samples.

Results

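The tricarboxylic acid (TCA) cycle enzyme genes of the budding yeast Saccharomyces cerevisiae described here are CIT1, ACO1, IDH1, IDH2, KGD1, KGD2, LSC1, LSC2, FUM1 and MDH1. These 10 genes were taken by name from the 6603 open reading frames (ORFs) listed in the deposited count files, and all 10 were found. Messenger RNA was sequenced in 2 libraries, 1 made from strain CY3003 with the tra1-L3733A allele and 1 from strain CY2706 with wild-type TRA1. The L3733A allele replaces a leucine of Tra1, which both histone acetyltransferase complexes SAGA and NuA4 contain. Cells of both strains were grown at 30 °C in YP medium with 2% glucose to an A600 of 2.0, and no other allele of either strain is given in the labels. The series compares gene expression between the allele and the wild-type gene. With 1 library per strain there is no replicate, so every difference below is between these libraries, and no p-value is given.

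The TCA cycle oxidises acetyl groups to carbon dioxide in the mitochondrial matrix and passes the electrons to the respiratory chain. Its intermediates also supply amino acid synthesis, with 2-oxoglutarate as the precursor of glutamate and oxaloacetate as that of aspartate. In yeast grown on glucose many genes of the cycle are repressed, and the activator complex Hap2/3/4/5, which binds CCAAT elements, raises many of them on respiratory carbon sources. In cells with impaired mitochondria, the retrograde factors Rtg1 and Rtg3, which bind the R box GTCAC, are needed for CIT1, ACO1, IDH1 and IDH2.

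The tra1-L3733A library held 9970836 counts and the TRA1 library 11564964, and levels are given as counts scaled to 1e6 (CPM) after TMM scaling of the library sizes, where TMM is a trimmed mean of the log ratios over ORFs. The TRA1 transcript itself had 5102 reads in the tra1-L3733A library and 12035 in the TRA1 library. The alpha-cell genes MF(ALPHA)1, MF(ALPHA)2, SAG1 and STE3 summed to 910 reads in the tra1-L3733A library and 668 in the TRA1 library, and 3 of these 4 passed the size rule given below as higher. The a-cell genes STE2, STE6, BAR1, MFA1 and MFA2 summed to 8721 reads in the tra1-L3733A library and 11189 in the TRA1 library. Of these 5, 0 passed in either direction. Among all tested ORFs, defined below, 2.8% passed as higher and 5.46% as lower. Both sums are reads not scaled to library size. The median TMM-scaled ratio of tra1-L3733A to TRA1 was 1.63 for the alpha-cell genes and 1.07 for the a-cell genes. None of these markers was at 0, and their part in the results below was not tested.

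All 10 genes are single-exon coding genes of nuclear chromosomes in the R64 reference. None of their 35-base words, the read length of the libraries, occurs at another place in R64, so near-identical copies do not share their reads at exact identity. IDH2 shares 251 bases with the listed ORF IRC14, which had 707 reads in the tra1-L3733A library and 797 in the TRA1 library, so reads from these bases cannot be assigned to either one. The other 9 overlap no listed ORF. Gene coordinates below are the files' own, and those of promoters are from R64.

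The 300 bases before the start codon are shown for the members with the highest ratios between the libraries, ACO1 and KGD2, and with the lowest, IDH1 and LSC2. They were read from R64 on the coding strand with the R64 annotation, and capitals mark CCAAT or GTCAC on either strand (ATTGG or GTGAC where the match is on the opposite strand). The region of ACO1 is chrXII:737549-737848, that of KGD2 chrIV:755067-755366, that of IDH1 chrXIV:559003-559302 and that of LSC2 chrVII:979320-979619, all on the minus strand.
ACO1: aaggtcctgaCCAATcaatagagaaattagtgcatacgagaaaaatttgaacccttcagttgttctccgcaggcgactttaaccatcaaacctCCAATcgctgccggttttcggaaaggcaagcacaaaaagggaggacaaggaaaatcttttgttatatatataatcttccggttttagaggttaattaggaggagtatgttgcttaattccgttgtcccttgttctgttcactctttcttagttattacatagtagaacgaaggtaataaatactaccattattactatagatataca
KGD2: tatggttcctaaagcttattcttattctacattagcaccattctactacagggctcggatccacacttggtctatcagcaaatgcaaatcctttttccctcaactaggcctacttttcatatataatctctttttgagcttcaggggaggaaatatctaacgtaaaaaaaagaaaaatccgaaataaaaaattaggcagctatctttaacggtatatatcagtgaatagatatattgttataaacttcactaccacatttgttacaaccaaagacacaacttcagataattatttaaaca
IDH1: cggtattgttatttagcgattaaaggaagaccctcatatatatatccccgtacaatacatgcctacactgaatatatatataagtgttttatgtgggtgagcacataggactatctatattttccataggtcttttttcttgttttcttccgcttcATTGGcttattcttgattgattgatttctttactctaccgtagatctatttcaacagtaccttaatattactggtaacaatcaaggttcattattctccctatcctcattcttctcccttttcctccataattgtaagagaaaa
LSC2: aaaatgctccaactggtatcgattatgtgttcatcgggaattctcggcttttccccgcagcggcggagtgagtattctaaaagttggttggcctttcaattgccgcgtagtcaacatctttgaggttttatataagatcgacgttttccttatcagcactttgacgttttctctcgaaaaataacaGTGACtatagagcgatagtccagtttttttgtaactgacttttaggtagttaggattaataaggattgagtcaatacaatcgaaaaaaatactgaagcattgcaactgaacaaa
CCAAT was found in these windows for 7 of the 10 members (CIT1, ACO1, IDH1, IDH2, KGD1, FUM1 and MDH1), against 41.7% of 6020 windows of the same length before nuclear coding genes. GTCAC was found for 3 of 10 (KGD1, LSC2 and FUM1), against 26.4%. The longer word ACCAATNA, which contains CCAAT, was added after the promoters were read. It was found for ACO1 alone among the members, against 5.22%. A match of letters is a description of the window and not of binding. Of the windows shown, ACO1 and IDH1 hold CCAAT, with the match nearest to the start codon beginning 207 bases before it in ACO1 and 144 in IDH1, while KGD2 holds neither word and LSC2 holds GTCAC.

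Transcripts of the TCA cycle had modestly higher levels in the tra1-L3733A library, and ACO1 stood apart from the rest. The ratio of tra1-L3733A to TRA1 lay above 1 for 9 of the 10 genes (8 with scaling by total counts, where IDH1 was at 0.9996), with a median log2 ratio of 0.24, against 0.00 over all 6248 ORFs tested, which are those with at least 20 reads over both libraries. Of all tested ORFs 49.6% had a log2 ratio above 0, and of those in the abundance range of the members, defined below, 56.6% did. All 10 members passed that minimum. Together the genes held 46017 reads in the tra1-L3733A library and 46196 in the TRA1 library. That is 0.462% (0.457 to 0.466%, exact binomial) of the tra1-L3733A counts and 0.399% (0.396 to 0.403%) of the TRA1 counts. The ratio of the summed CPM, on TMM-scaled library sizes, was 1.24, with a 95% exact counting interval of 1.221 to 1.253. On total counts, which the shares use, the ratio was 1.155.

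The size rule, which asks for a 1.5-fold difference in either direction with a counting interval that leaves out 1, called 0 of 10 members higher, against 2.8% of all tested ORFs, and 0 lower, against 5.46%. In the abundance range of the members these shares were 1.87% and 4.98%. With the interval alone and no minimum ratio, 9 of 10 lay above 1 and 0 below, against 24.2% and 25.5% of all tested ORFs. The number above 1 was 7 with scaling by total counts, where the intervals of CIT1 (0.999 to 1.08) and IDH1 (0.943 to 1.06) held 1, against 14.5% of all tested ORFs with that scaling. It was 7 in forward reads too, where those of IDH1 and LSC1 held 1, against 19.7% of ORFs. Deep counts make narrow intervals, so the 643 tested ORFs whose mean CPM lay within the range of the members, 214 to 1184, are the closer background. Of these, 46.0% lay above 1 and 35.0% below, and their median log2 ratio was 0.04. With the minimum ratio lowered to 5/4, 3 members were higher (ACO1, KGD2 and FUM1) and 0 lower, against 10.7% and 14.4% of all tested ORFs and 13.5% and 12.3% in the same abundance range. All these intervals cover counting error only, not the spread between cultures.

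**Figure D1:**
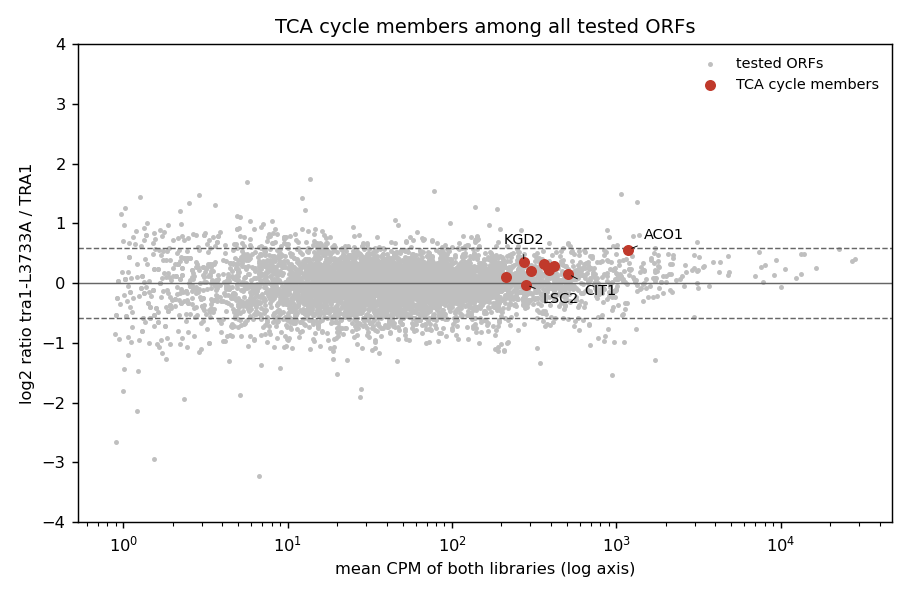
Log2 ratio of tra1-L3733A to TRA1 against the mean CPM of both libraries on a log axis, for the 6248 tested ORFs (grey) and the 10 TCA cycle members (red), with dashed lines at ratios of 1.5 either way. The members lie inside the dashed lines, and with TMM scaling 9 of 10 lie above 0.

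The first steps of the cycle, which turn oxaloacetate and acetyl-CoA into citrate and then 2-oxoglutarate, held the member with the highest ratio. ACO1 (YLR304C, chromosome XII, 735214 to 737550), the mitochondrial aconitase, which converts citrate to isocitrate, had 13591 reads in the tra1-L3733A library and 11450 in the TRA1 library, or 1410 and 957 CPM. Its ratio was 1.47 (1.44 to 1.51), just under the size rule, and 3.78% of tested ORFs had a ratio as high or higher. ACO1 made up 29.5% of the members' reads in the tra1-L3733A library and 24.8% in the TRA1 library. Of the summed difference of 913 CPM between the libraries, ACO1 gave 453, or 49.6%. Without ACO1 the ratio of the summed CPM was 1.16 (1.14 to 1.18), so the other genes were higher together as well.

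CIT1 (YNR001C, chromosome XIV, 629624 to 631063), the mitochondrial citrate synthase that starts the cycle, had 5170 reads in the tra1-L3733A library and 5783 in the TRA1 library, or 536 and 483 CPM, a ratio of 1.11 (1.07 to 1.15). IDH1 and IDH2 encode the subunits of the NAD-dependent isocitrate dehydrogenase, Idh2 being the catalytic and Idh1 the regulatory one. IDH1 (YNL037C, chromosome XIV, 557921 to 559003) had 2133 reads in the tra1-L3733A library and 2475 in the TRA1 library, or 221 and 207 CPM, a ratio of 1.07 (1.01 to 1.13). IDH2 (YOR136W, chromosome XV, 580251 to 581360) had 4026 reads in the tra1-L3733A library and 4202 in the TRA1 library, or 418 and 351 CPM, a ratio of 1.19 (1.14 to 1.24). The 4 genes of these steps thus ran from 1.07 to 1.47, the widest range of the 3 groups of steps. As a group their summed CPM had a ratio of 1.29 (1.27 to 1.32).

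The steps from 2-oxoglutarate to succinate are carried by the 2-oxoglutarate dehydrogenase complex and succinyl-CoA ligase. KGD1 (YIL125W, chromosome IX, 122689 to 125733), the dehydrogenase component, had 4410 reads in the tra1-L3733A library and 4483 in the TRA1 library, or 458 and 375 CPM, a ratio of 1.22 (1.17 to 1.27). KGD2 (YDR148C, chromosome IV, 753673 to 755064), the succinyltransferase core of the same complex, had 2949 reads in the tra1-L3733A library and 2876 in the TRA1 library, or 306 and 240 CPM, a ratio of 1.27 (1.21 to 1.34). These 2 ratios did not differ beyond counting error, as the subunit comparison below shows.

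LSC1 and LSC2 encode the alpha and beta subunits of succinyl-CoA ligase, the step that yields a nucleoside triphosphate directly. LSC1 (YOR142W, chromosome XV, 593058 to 594047) had 3102 reads in the tra1-L3733A library and 3357 in the TRA1 library, or 322 and 281 CPM, a ratio of 1.15 (1.09 to 1.20). LSC2 (YGR244C, chromosome VII, 978041 to 979324) had 2702 reads in the tra1-L3733A library and 3424 in the TRA1 library, or 280 and 286 CPM, a ratio of 0.980 (0.931 to 1.03). LSC2 was the only member whose ratio lay below 1 with TMM scaling, and its interval held 1, though it lay wholly below 1 when libraries were scaled by total counts or by lane reads. The summed CPM of the 4 genes had a ratio of 1.16 (1.13 to 1.18).

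The last steps lead from fumarate to malate and back to oxaloacetate. FUM1 (YPL262W, chromosome XVI, 47336 to 48802), the fumarase, which acts in mitochondria and cytosol, had 3917 reads in the tra1-L3733A library and 3876 in the TRA1 library, or 406 and 324 CPM, a ratio of 1.254 (1.20 to 1.31). MDH1 (YKL085W, chromosome XI, 278767 to 279771), the mitochondrial malate dehydrogenase, had 4017 reads in the tra1-L3733A library and 4270 in the TRA1 library, or 417 and 357 CPM, a ratio of 1.17 (1.12 to 1.22). Both lay above 1, and their summed CPM had a ratio of 1.21 (1.17 to 1.247).

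**Figure D2:**
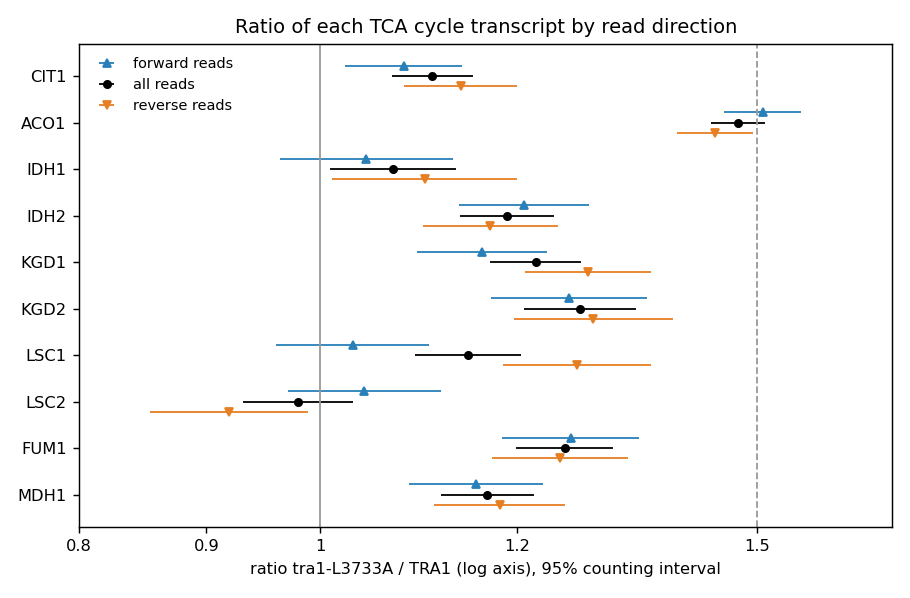
Ratio of tra1-L3733A to TRA1 on a log axis for each member, from all reads (circles), forward reads (triangles up) and reverse reads (triangles down), with 95% counting intervals and lines at 1 and 1.5. ACO1 lies to the right of the other members at 1.47, and the forward and reverse intervals of LSC1 do not overlap.

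Ordered by ratio, the members ran ACO1, KGD2, FUM1, KGD1, IDH2, MDH1, LSC1, CIT1, IDH1 and LSC2. Of the 9 neighbouring pairs in this order, 7 did not differ beyond counting error. The exceptions were the ends of the order. The ratio of ACO1 was 1.16 times that of KGD2 (exact interval of the odds ratio 1.09 to 1.23), and the ratio of IDH1 was 1.09 times that of LSC2 (1.01 to 1.18). In forward reads IDH1 and LSC2 were both at 1.04, and in reverse reads they were at 1.10 and 0.920.

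The 2 read directions give separate counts from the same pair of libraries and show error beyond counting. The column names fr and rr were taken to mean these directions, and no source used here defines them. For LSC1 the ratio was 1.03 (0.960 to 1.11) in forward reads, on 1415 and 1706 reads for tra1-L3733A and TRA1, and 1.27 (1.18 to 1.36) in reverse reads, on 1687 and 1651. These intervals do not overlap, so the interval from all LSC1 reads is too narrow. LSC2 differed the other way, at 1.04 (0.970 to 1.12) in forward and 0.920 (0.855 to 0.989) in reverse reads, with overlapping intervals. LSC1 was the 1 member of 10 whose intervals were separate, against 6.38% of the ORFs in the same abundance range. The median difference between directions was 0.07 on the log2 scale for the members and 0.06 in that range. ACO1 was high in both, at 1.51 (1.45 to 1.56) in forward and 1.44 (1.39 to 1.49) in reverse reads.

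Per length of ORF, ACO1 was the most abundant and KGD1 the least abundant transcript of the members in both libraries. ACO1 stood at 603 CPM per kb in the tra1-L3733A library and 410 in the TRA1 library, and KGD1 at 150 and 123. Between them the order in the tra1-L3733A library was MDH1 (415 CPM per kb), IDH2 (376), CIT1 (373), LSC1 (325), FUM1 (277), KGD2 (220), LSC2 (218) and IDH1 (204). In the TRA1 library it was MDH1 (355), CIT1 (336), IDH2 (316), LSC1 (283), LSC2 (223), FUM1 (221), IDH1 (191) and KGD2 (173). Neighbours that did not differ beyond counting error were IDH2 and CIT1, and KGD2 and LSC2, in the tra1-L3733A library, and LSC2 and FUM1 in the TRA1 library. By mean level per kb, 5.03% of tested ORFs stood above ACO1 and 16.1% above KGD1, so all 10 transcripts were among the more abundant ones of the tested ORFs.

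**Figure D3:**
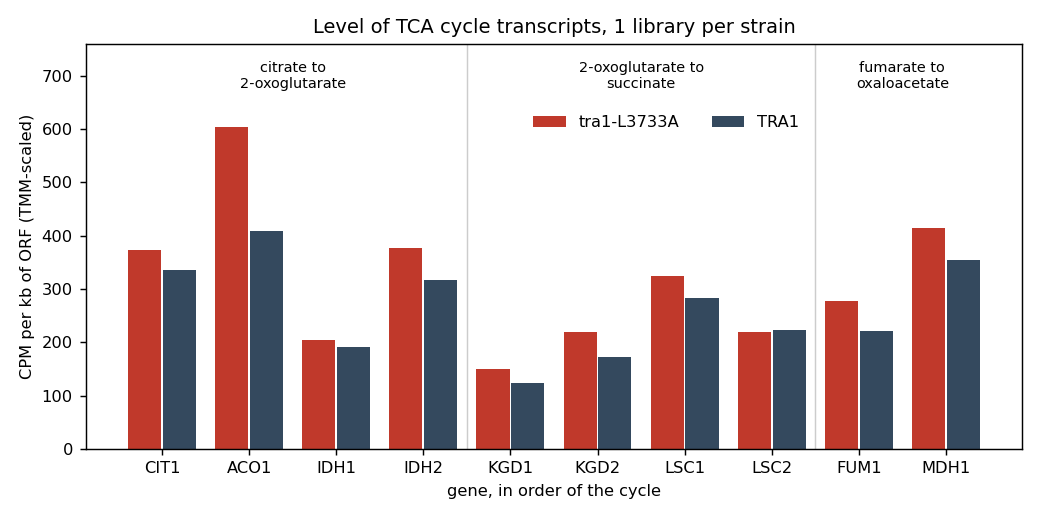
Level of each member in TMM-scaled CPM per kb of ORF, in the order of the cycle, with the tra1-L3733A library in red and the TRA1 library in dark blue, 1 library each. The red bar is the taller one for 9 of 10 genes, LSC2 being the exception at 218 against 223.

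Subunits that form 1 enzyme were set against each other per length, which does not depend on the scaling between libraries. IDH1 stood at 0.543 (0.515 to 0.572) of IDH2 in the tra1-L3733A library and at 0.604 (0.574 to 0.635) in the TRA1 library, which is 0.900 (0.836 to 0.968) times the TRA1 value. KGD1 stood at 0.684 (0.652 to 0.716) of KGD2 in the tra1-L3733A library and at 0.713 (0.680 to 0.747) in the TRA1 library, a quotient of 0.959 (0.898 to 1.03) whose interval held 1. LSC1 stood at 1.49 (1.41 to 1.57) of LSC2 in the tra1-L3733A library and at 1.27 (1.21 to 1.33) in the TRA1 library, a quotient of 1.17 (1.09 to 1.26). The LSC quotient came from reverse reads, at 1.38 (1.248 to 1.53), and was 0.989 (0.894 to 1.09) in forward reads. The IDH quotient was 0.864 (0.781 to 0.955) in forward and 0.941 (0.846 to 1.05) in reverse reads, so it lay below 1 in both directions but excluded 1 in forward reads alone. The part of IDH2 shared with IRC14 bears on this value and was not tested.

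Related genes of the cycle did not all stand where the members did. The 4 genes of succinate dehydrogenase, the enzyme between LSC1/LSC2 and FUM1 that also belongs to the respiratory chain, were all near ACO1 in ratio. SDH1 was at 1.49 (1.41 to 1.57), SDH2 at 1.43 (1.34 to 1.53), SDH3 at 1.41 (1.32 to 1.51) and SDH4 at 1.41 (1.30 to 1.52). LPD1, the dihydrolipoamide dehydrogenase shared by the 2-oxoglutarate and pyruvate dehydrogenase complexes, was at 1.15 (1.11 to 1.20). KGD4, listed as YMR31, which links that enzyme to KGD1 and KGD2, was at 0.808 (0.709 to 0.921) on 381 reads for tra1-L3733A and 585 for TRA1. The subunits of the 2-oxoglutarate dehydrogenase complex thus lay on both sides of 1. Of these 6 partner genes 0 passed the size rule in either direction, against 2.8% higher and 5.46% lower among all tested ORFs. The median log2 ratio of the 6 genes was 0.49.

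Among isozymes outside the cycle the highest ratio belonged to a citrate synthase. Of 7 genes, 1 was higher by the size rule and 0 were lower, against 2.8% and 5.46% of all tested ORFs. CIT2, the peroxisomal citrate synthase of the glyoxylate cycle and a standard reporter of the retrograde response, had 1693 reads in the tra1-L3733A library and 1280 in the TRA1 library, a ratio of 1.64 (1.53 to 1.77), against 1.11 for CIT1. The peroxisomal enzyme's transcript thus stood above that of its mitochondrial counterpart in ratio, with intervals that did not overlap.

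The malate dehydrogenases lay on both sides of 1. The cytosolic MDH2 was at 1.32 (1.24 to 1.41) and the peroxisomal MDH3 at 0.892 (0.849 to 0.937), with MDH1 between them. CIT3, a minor mitochondrial citrate synthase, was at 1.34 (1.10 to 1.64) on 211 and 195 reads for tra1-L3733A and TRA1. The NADP-dependent isocitrate dehydrogenases IDP1, IDP2 and IDP3 were at 1.005 (0.958 to 1.05), 1.10 (0.878 to 1.38) and 1.14 (0.867 to 1.49), and all 3 intervals held 1. The median log2 ratio of the 7 isozymes was 0.185.

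Genes that bring carbon to the cycle had a median log2 ratio of 0.09, which became -0.01 with scaling by total counts. Ratios lay above 1 for 6 of these genes with TMM scaling and for 3 with scaling by total counts. Of 8, 0 passed the size rule in either direction, against 2.8% higher and 5.46% lower among all tested ORFs. The pyruvate dehydrogenase genes PDA1, PDB1 and LAT1 were at 1.08 (1.05 to 1.11), 1.06 (1.02 to 1.10) and 1.10 (1.06 to 1.14), and the pyruvate carboxylase gene PYC2 at 1.14 (1.10 to 1.17). With TMM scaling, intervals lay above 1 for 4 of these 8 genes and below 1 for 1, against 24.2% and 25.5% of all tested ORFs. In the abundance range of the members these shares were 46.0% and 35.0%. The intervals of the other 3 held 1. These were PYC1 at 1.01 (0.963 to 1.07), PDX1 at 1.06 (0.978 to 1.16) and the pyruvate carrier gene MPC1, listed as FMP37, at 0.878 (0.708 to 1.09). MAE1, the mitochondrial malic enzyme, which overlaps YKL030W, was the lowest at 0.761 (0.734 to 0.789). In the glyoxylate and gluconeogenesis list, ICL1, MLS1, PCK1 and FBP1, which glucose represses strongly, summed to 647 reads in the tra1-L3733A library and 833 in the TRA1 library. All 4 intervals held 1, with ratios from 0.840 to 0.991, and the median log2 ratio was -0.12.

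Among the 8 regulators 0 passed the size rule in either direction, against 2.8% higher and 5.46% lower among all tested ORFs. The median log2 ratio of the regulators was 0.11 (0.02 with scaling by total counts). HAP4, the activating subunit of the Hap complex, had 3728 reads in the tra1-L3733A library and 4190 in the TRA1 library, a ratio of 1.10 (1.06 to 1.15). HAP5 was the highest at 1.28 (1.02 to 1.60), on 163 reads for tra1-L3733A and 158 for TRA1, and HAP2 the lowest at 0.880 (0.729 to 1.06), on 197 and 278. RTG1, RTG2 and RTG3 were at 1.06 (0.886 to 1.27), 1.04 (0.957 to 1.12) and 1.14 (0.983 to 1.32), and MKS1, a negative regulator of the retrograde response, at 0.890 (0.788 to 1.004). The intervals of the RTG genes and MKS1 all held 1, so no difference was detectable for them at this depth.

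**Figure D4:**
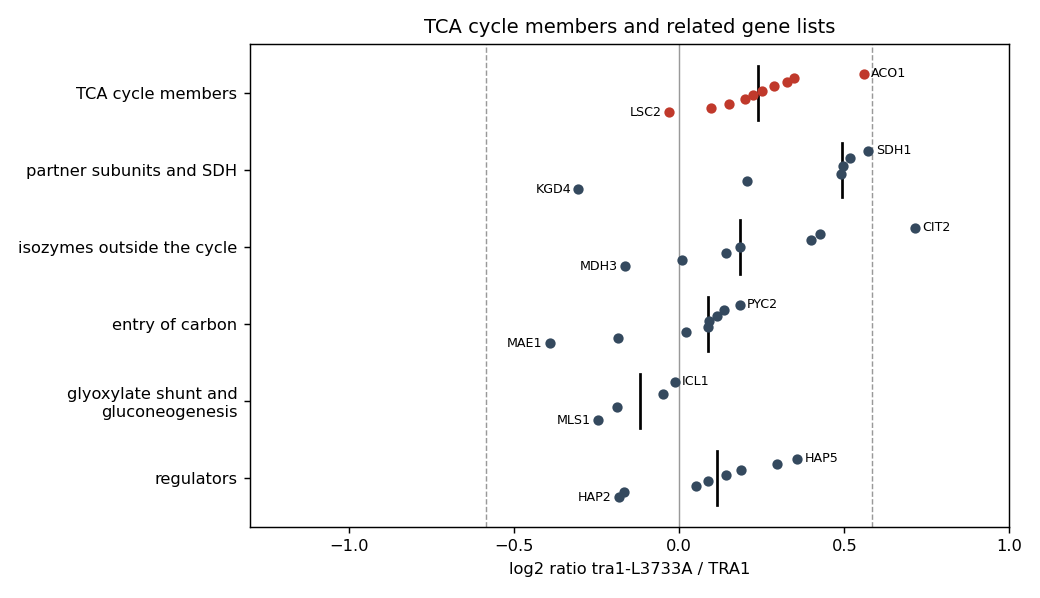
Log2 ratio of tra1-L3733A to TRA1 for the 10 members (red) and for the genes of 5 related lists (dark blue), with a black bar at each list's median, the lowest and highest gene named, and dashed lines at ratios of 1.5 either way. CIT2 is the gene outside the dashed lines, and the members' median is 0.24.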

How the data were processed

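RNA was sequenced as 35-nucleotide reads, 1 lane per library, with 11156078 lane reads for tra1-L3733A and 13014880 for TRA1, per the labels' protocols. Novoalign is the aligner named, per the submitters' processing notes. Neither its version nor a genome build or annotation release was given in the sources used here. Per the file headers, each deposited file lists raw counts per ORF in an fr and an rr column, which were taken as forward and reverse reads, since no source used here defines them. A deposited coverage signal equalled their sum divided by the listed length in all 6603 ORFs of both files, to a tolerance of 1e-06. Whether the kit kept strand was not stated, so opposite ORFs are not separated.

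Both directions were summed. TMM factors, from edgeR 4.0.16 in R 4.3.3, were 0.967 for tra1-L3733A and 1.035 for TRA1. With no replicates, edgeR's quasi-likelihood test has no spread to estimate, so ratios carry 95% exact (Clopper-Pearson) counting intervals. No molecular identifiers were given, so reads may be copies of 1 molecule. Log2 ratios used 0.5 added reads. Levels per kb used the listed start to end. Of the listed ORFs, 5919 matched R64 by identifier and 918 of these had the same start, so R64 served for sequence words, GC content and promoters by identifier only. The intervals and the size rule were run on simulated counts with known changes and counting error only. That simulation cannot show how they behave under error beyond counting. Alternatives were other scalings (total counts, lane reads, DESeq2 1.42.0 size factors), read minimums, single directions, length or GC trends removed by lowess with a span of 0.3, overlapping ORFs left out, other folds and 5 added reads.

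The genes named are the 10 members and, from the 5 related lists, all genes of short lists or the highest and lowest. Any further gene of a longer list was chosen after its values were seen. The members and lists were chosen with earlier results of these data known. The word ACCAATNA was added after the promoters were read. 1 gene is not reported here.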

Additional observations from a re-analysis of the deposited data

How the results depend on the processing

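No paired analysis was possible because there is 1 library per strain. Scaling by total counts and by lane reads moved the median of all tested ORFs to -0.10 and -0.09 on the log2 scale and the members' median to 0.14 and 0.15. It moved the ratio of the summed members to 1.155 by total counts and 1.162 by lane reads. In either case 1 member, LSC2, had its interval below 1, at 0.915 (0.870 to 0.963) and 0.921 (0.875 to 0.969). Of all tested ORFs 35.8% by total counts and 34.8% by lane reads had intervals below 1. With total counts the ratio of IDH1 was 0.9996. Removing the length trend put the summed ratio at 1.22. In forward reads 1 member, ACO1, was higher by the size rule, against 3.44% of all ORFs tested on those reads, and in reverse reads 1 member, LSC2, had its interval below 1, against 20.9% of those ORFs. The log2 difference in LSC1 over LSC2 between tra1-L3733A and TRA1 was -0.015 in forward and 0.46 in reverse reads. The number of members with intervals above 1 fell to 7 with total counts, 8 with lane reads and 7 in forward reads. The shares of all tested ORFs in these settings were 14.5%, 15.2% and 19.7%, against 24.2% with TMM scaling. The number was 8 with the length or the GC trend removed, against 23.2% and 22.9% of ORFs. Without overlapping ORFs, which leaves out IDH2, it was 8 of 9, against 24.1% of the remaining ORFs. The closer background, the ORFs in the abundance range of the members, is given for TMM scaling only, where 46.0% had intervals above 1. With the minimum ratio at 5/4, 3 members were higher, against 10.7% of all tested ORFs. The cause of these shifts was not tested.

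The members' median log2 ratio lay between 0.14 and 0.28 in the settings run for it, and 0 members were lower by the size rule in those run for that count. Of 70 ratios of single members recomputed under settings that can move them, 43 stayed within the counting interval of the reported value. With 1 library per strain the spread between cultures is unknown, so ratios near 1 rest on counting error alone.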
